A study of Homo sapiens with 12 samples.

Results

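The adhesion G protein-coupled receptors (adhesion GPCRs) were followed here as 10 genes, ADGRG1, ADGRG2, ADGRG6, ADGRE5, ADGRL1, ADGRL2, ADGRL4, ADGRA2, ADGRA3 and ADGRB2, of 58381 genes in the count table. They were chosen by their family symbols after one of them, ADGRG2, had been seen to be nearly lost in Hs578T cells without CD44. The values of that comparison therefore describe the choice. No p of a member is printed for it, and passes of the threshold there are given as description only. All 10 passed the filter on low values (over 1 CPM, the count in a library scaled to 1000000 counts, in at least 2 libraries), which left 15836 genes for testing. ADGRL4 passed it only through the Hs578T CD44 KO libraries and ADGRG6 only through the MDA-MB-231 libraries, so both had to differ between groups. The whole family in the annotation holds 32 genes, of which 21 passed the filter.

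Hs578T and MDA-MB-231 are human breast cancer cell lines, grown from a primary carcinoma and from a pleural effusion, and each was sequenced as CD44 WT and as CD44 KO, with 3 RNA-seq libraries in each of the 4 groups. CD44 is a surface receptor for the matrix polysaccharide hyaluronan. All 4 groups carried a lentiviral, doxycycline-inducible Cas9 under puromycin selection. The CD44 KO groups were sorted populations, positive for CD29 (ITGB1) and negative for CD44 after transfection with a pair of guides against CD44, and not single clones. The CD44 WT groups had received the transfection reagent alone and were sorted for both proteins. All cells were kept in reduced serum (1%) for a day before the RNA was taken, and the sources used here do not say if separate cultures gave the 3 libraries of each group, so the p-values measure the spread between these libraries, which may be technical.

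Adhesion GPCRs carry a long extracellular part that a conserved autoproteolysis domain cuts close to the membrane, and the cut leaves a tethered peptide that can activate the receptor once the outer fragment is pulled away. Their outer parts bind matrix proteins and proteins of neighbouring cells, and many of the receptors signal through heterotrimeric G proteins to RhoA or to cyclic AMP. The members here differ in their known sites of action, from the epididymis (ADGRG2) and Schwann cells (ADGRG6) to blood vessels (ADGRL4, ADGRA2) and synapses (ADGRL1, ADGRL2).

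The libraries held between 10257586 and 19725543 counts in genes. CD44 itself had 527, 494 and 501 CPM (scaled here by the trimmed mean of M values, TMM) in the Hs578T CD44 WT libraries and 28.3, 28.6 and 24.9 in the CD44 KO libraries. In MDA-MB-231 it had 362, 363 and 360 CPM in CD44 WT and 40.3, 32.4 and 30.0 in CD44 KO. In each line the CD44 KO libraries all lay far below the CD44 WT libraries. Of the markers of the lines, VIM, KRT8, KRT18 and ITGB1 had at least 3182 counts in every library. Of the receptor genes PGR had 0 and ESR1 0 to 17 counts, while ERBB2 had 650 to 1398. Of the epithelial markers CDH1 had 0 to 14 counts over all libraries, and EPCAM had 0 or 1 in Hs578T and 154 to 261 in MDA-MB-231. Markers of other cell types were low but not level. PTPRC, a leukocyte marker, had 3 to 7 counts in Hs578T CD44 WT and 39 to 60 in CD44 KO, whereas the T cell marker CD3E had 4 to 8 and the macrophage marker CD68 0 to 2 over the 6 Hs578T libraries. The summed level of PTPRC, CD3E, CD68, PECAM1 and ADIPOQ ran from 11.5 to 13.7 CPM in Hs578T CD44 WT and from 16.5 to 20.1 in CD44 KO, against 1.52 to 4.64 over both MDA-MB-231 groups, and its part in the results was not tested.

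A pair of libraries stood further from their group than the rest. Hs578T CD44 WT replicate 3 was over 1 log2 unit from the mean of the other CD44 WT libraries in 714 genes, and MDA-MB-231 CD44 WT replicate 1 in 625 genes, against 169 to 480 genes for the other libraries. Among the 9 members with enough counts in Hs578T, replicate 3 was the CD44 WT library nearest to the CD44 KO mean for 6, namely ADGRG1, ADGRG2, ADGRL1, ADGRL2, ADGRA2 and ADGRB2. Over all tested genes it was the nearest for 40.8%. The Hs578T changes of these 6 members are therefore given with and without replicate 3. Some other values are also given without 1 of the 2 libraries that stood apart.

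**Figure D1:**
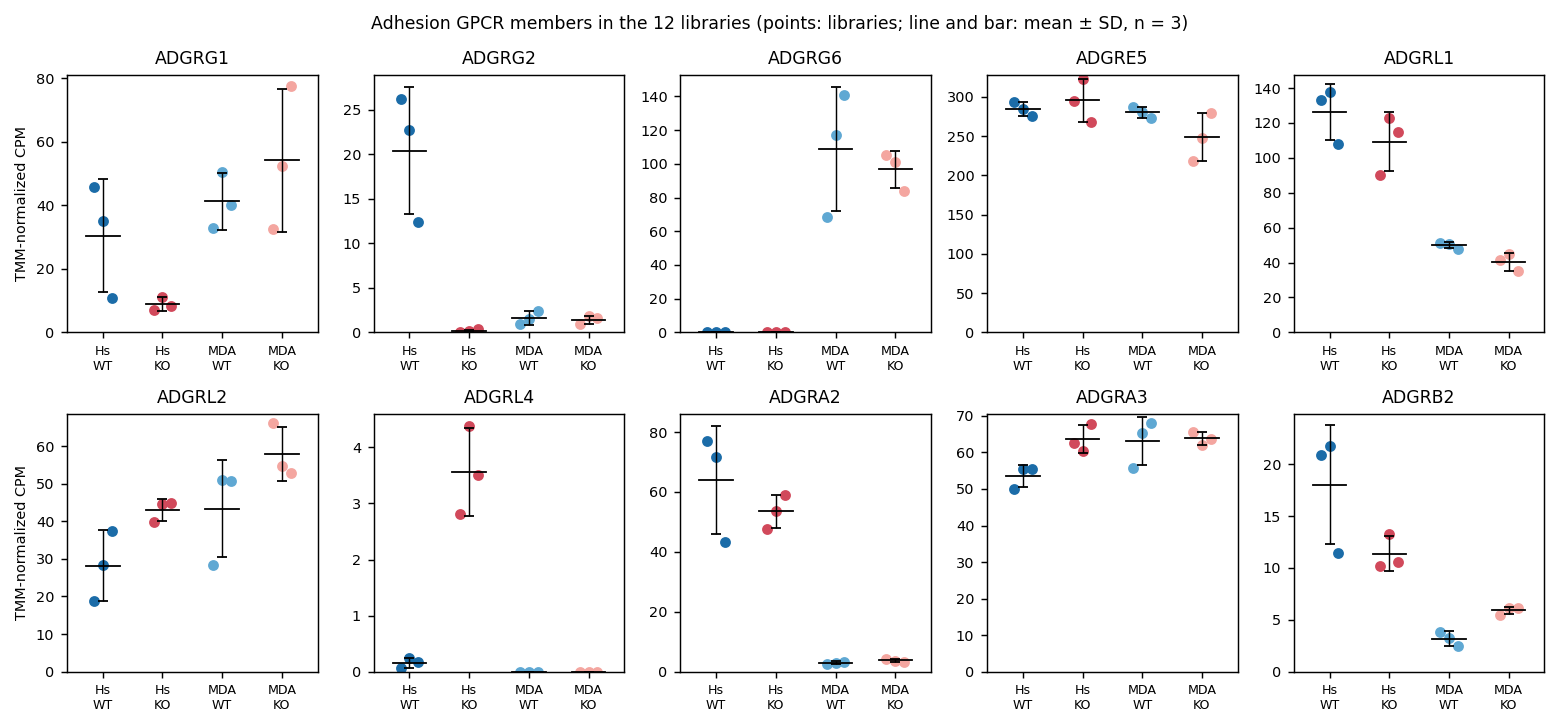
TMM-normalized CPM of the 10 members (y axes, linear from 0) in Hs578T (Hs) and MDA-MB-231 (MDA) CD44 WT and CD44 KO, with points for the 3 libraries of a group in the order replicate 1, 2, 3 (MDA-MB-231 CD44 WT: replicate 1, replicate 3, unnumbered) and a line and bar for the mean ± SD. ADGRG2 lies between 12.4 and 26.2 CPM in Hs578T CD44 WT and at most at 0.341 in CD44 KO, ADGRL4 reaches 2.81 CPM or more in the Hs578T CD44 KO libraries alone, and ADGRG6 lies at or below 0.165 CPM in every Hs578T library.

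In Hs578T the CD44 KO cells nearly lacked ADGRG2 RNA and had ADGRL4 RNA that the CD44 WT cells nearly lacked. Their mean of ADGRG1 RNA was lower, but the groups overlapped and the pass was lost in 8 of the 12 fits that left out 1 library. Of the 10 members, 3 were past an adjusted p of 0.01 in edgeR's quasi-likelihood test, where 7.51% of all tested genes were. The list was built on this comparison, so nothing is read from that count. ADGRG2 and ADGRG1 were lower in CD44 KO and ADGRL4 was higher. The median log2 fold change of the 9 members with a fold was -0.21. The CD44 WT and CD44 KO libraries did not overlap for 4 members (ADGRL2, ADGRL4 and ADGRA3 higher, ADGRG2 lower), and for 37.3% of all tested genes.

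ADGRG2, also called GPR64 or HE6, is an orphan receptor best known from the epididymal ducts, where it is needed for fluid reabsorption and male fertility, and it can raise cyclic AMP through Gs. The gene is on chromosome X, bases 18989309 to 19122637 on the minus strand (GRCh38). Its raw counts were 378, 276 and 147 in Hs578T CD44 WT and 1, 2 and 4 in CD44 KO. The normalized values were 26.2, 22.7 and 12.4 CPM against 0.0802, 0.123 and 0.341 CPM. Every CD44 KO library was thus far below every CD44 WT library, although the CD44 WT libraries themselves spread over a wide range with replicate 3 lowest. This gave a log2 fold change of -6.81 ± 0.467 (SE), and -7.06 ± 0.387 without CD44 WT replicate 3. Leaving out each library in turn gave values from -7.48 to -6.51. Summed over the libraries the level was 120-fold higher in CD44 WT, with an exact 95% interval of 58.2 to 301 that covers counting error only.

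In MDA-MB-231 the same gene was low in both groups. Its level was 0.943, 1.46 and 2.41 CPM in CD44 WT and 0.932, 1.8 and 1.58 CPM in CD44 KO, and the groups overlapped almost fully. The log2 fold change was -0.11 ± 0.426 (edgeR, adjusted p = 0.936), and it changed sign without the unnumbered CD44 WT library (0.29) or CD44 KO replicate 1 (0.1). Hs578T CD44 WT had 12.8 times the mean CPM of MDA-MB-231 CD44 WT. Ordered by mean level, Hs578T CD44 WT came first with no overlap, the MDA-MB-231 groups followed and did not differ beyond their spread, and Hs578T CD44 KO lay below both with no overlap. The difference of the knockout changes between the lines was -6.69 ± 0.691 on the log2 scale.

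ADGRL4, also called ELTD1, is a receptor of endothelial cells that takes part in the growth of blood vessels. It lies on chromosome 1, bases 78889764 to 79006718 on the minus strand. Its raw counts were 1, 3 and 2 in Hs578T CD44 WT and 35, 71 and 41 in CD44 KO, or 0.0694, 0.247 and 0.169 CPM against 2.81, 4.38 and 3.5 CPM. The groups did not overlap, and the level stayed low even where it was highest. The fitted log2 fold change was 4.43 ± 0.449, and 4.48 ± 0.53 without CD44 WT replicate 3. Leaving out each library in turn gave values from 4.04 to 4.85. None of the 6 MDA-MB-231 libraries held a count of it. With a floor of 3 counts put in for the empty MDA-MB-231 group, the ratio of Hs578T CD44 KO to MDA-MB-231 CD44 KO was 49.5. For the CD44 WT groups it was 1.83, from 6 counts against 0. Neither ratio allows for counting error in the Hs578T counts, so 1.83 is not a lower bound. The endothelial marker PECAM1 had 125 to 167 counts in Hs578T CD44 WT, 165 to 207 in CD44 KO and 16 to 47 in MDA-MB-231, and its part in the ADGRL4 values was not tested.

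ADGRG1, also called GPR56, binds collagen III and transglutaminase 2 and signals through G12/13 to RhoA. The gene is on chromosome 16, bases 57610652 to 57665580 on the plus strand, beside ADGRG3 and ADGRG5, which had 34 and 16 counts in all 12 libraries together. In Hs578T CD44 WT it had 45.6, 34.9 and 10.9 CPM, and in CD44 KO 6.9, 11.2 and 8.44 CPM. The groups overlapped, because CD44 WT replicate 3 was at the level of the CD44 KO libraries. Over all libraries the log2 fold change was -1.78 ± 0.413, and -2.17 ± 0.3 without that library. Leaving out each library in turn gave values from -2.17 to -1.36. The gene did not stay past the threshold in 8 of the 12 fits that left out 1 library. They were those without CD44 WT replicate 1 or 2, without any one of the CD44 KO replicates, or, from MDA-MB-231, without replicate 3 or the unnumbered library of CD44 WT or replicate 2 of CD44 KO. In MDA-MB-231 the level was 32.9, 50.5 and 40.2 CPM in CD44 WT and 32.6, 52.3 and 77.6 CPM in CD44 KO, with a log2 fold change of 0.39 ± 0.368 (edgeR, adjusted p = 0.571). The lines did not differ detectably in CD44 WT, at a log2 difference of -0.43 ± 0.375 (edgeR, adjusted p = 0.316) that became -0.03 without Hs578T CD44 WT replicate 3.

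**Figure D2:**
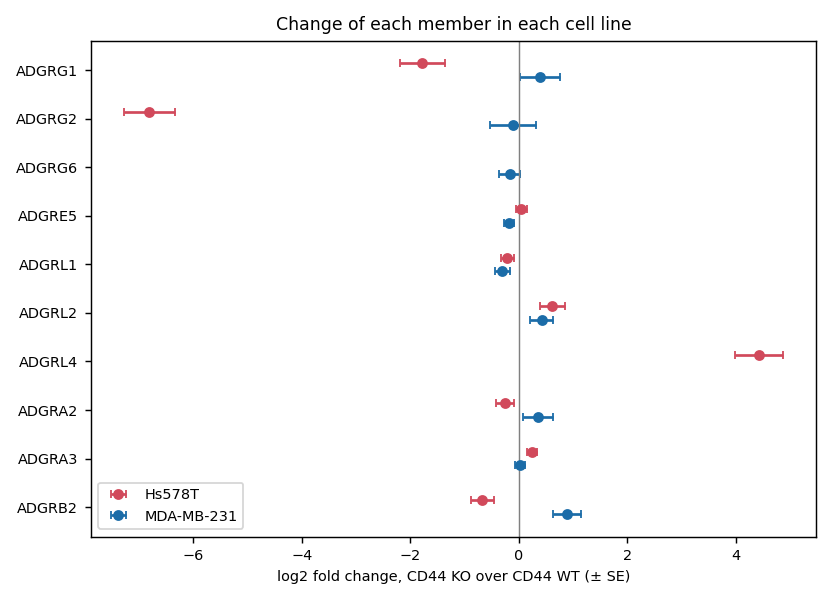
Knockout change on the log2 scale, CD44 KO relative to CD44 WT (x axis, bars ± SE) for the members in Hs578T (red) and MDA-MB-231 (blue), without ADGRG6 in Hs578T and ADGRL4 in MDA-MB-231, where both groups had at most 3 counts. The Hs578T values of ADGRG2 (-6.81) and ADGRL4 (4.43) lie far outside the range of -0.30 to 0.89 that the members span in MDA-MB-231.

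In MDA-MB-231 no member changed at the threshold between CD44 KO and CD44 WT. Of the 10 members, 0 passed an adjusted p of 0.01 in edgeR, where 4.62% of all tested genes did. DESeq2 also passed 0, and 2 members (ADGRB2 and ADGRL1) had an unadjusted p under 0.05. The median log2 fold change of the 9 members with counts was 0.02, and that over all tested genes was -0.01. The groups did not overlap for 3 members (ADGRL2 and ADGRB2 higher, ADGRL1 lower), and for 25.5% of all tested genes.

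ADGRB2 (BAI2), a brain receptor of the angiogenesis inhibitor group, had the largest change of the members in MDA-MB-231. Its level was 3.86, 3.24 and 2.49 CPM in CD44 WT and 5.51, 6.14 and 6.12 CPM in CD44 KO, with every CD44 KO library above every CD44 WT library. This was a log2 fold change of 0.89 ± 0.26 (edgeR, adjusted p = 0.0426). Without Hs578T CD44 WT replicate 3, which enters through the shared estimate of the spread, the adjusted p of the edgeR fit was 0.00734, and over the 12 fits that left out 1 library it ran from 0.00734 to 0.126. In Hs578T the gene was at 20.9, 21.8 and 11.4 CPM in CD44 WT and 10.2, 13.3 and 10.6 CPM in CD44 KO, so that CD44 WT replicate 3 again lay among the CD44 KO libraries. The log2 fold change there was -0.67 ± 0.21, and -0.91 ± 0.162 without that library. Over the 12 fits it ran from -0.91 to -0.51.

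The knockout changes of ADGRB2 thus had opposite signs in the lines, and their difference was -1.56 ± 0.334 on the log2 scale. It was past the threshold with ADGRG2 (2 of the 10 members, where 4.12% of all tested genes were), and since it contains the comparison the list was built on, nothing is read from the count. For ADGRB2 the pass was kept in 2 of the 12 fits that left out 1 library, those without Hs578T CD44 WT replicate 3 and without MDA-MB-231 CD44 WT replicate 1. The values of the difference in those fits were -1.79 ± 0.248 and -1.71 ± 0.362, and over all 12 fits it ran from -1.79 to -1.41.

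The latrophilins ADGRL1 and ADGRL2 bind teneurins and FLRT proteins on facing cells. ADGRL1 had 133, 138 and 108 CPM in Hs578T CD44 WT and 90.1, 123 and 115 CPM in CD44 KO, and the groups overlapped. In MDA-MB-231 it had 51.3, 50.8 and 47.8 CPM in CD44 WT and 41.3, 45.2 and 35.0 CPM in CD44 KO, with every CD44 KO library lower. Its log2 fold change was -0.21 ± 0.125 in Hs578T, and -0.31 ± 0.129 without CD44 WT replicate 3. Over the fits that left out 1 library it ran from -0.31 to -0.09. In MDA-MB-231 it was -0.30 ± 0.132 (edgeR, adjusted p = 0.185).

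ADGRL2 had 18.7, 28.5 and 37.4 CPM in Hs578T CD44 WT and 39.7, 44.5 and 44.9 CPM in CD44 KO. In MDA-MB-231 it had 28.5, 50.9 and 50.6 CPM in CD44 WT and 66.2, 54.6 and 52.9 CPM in CD44 KO. It was the one member whose CD44 KO libraries lay above all CD44 WT libraries in both lines, by narrow margins. In Hs578T the log2 fold change was 0.62 ± 0.225, and 0.87 ± 0.227 without CD44 WT replicate 3. Over the fits that left out 1 library it ran from 0.38 to 0.87. In MDA-MB-231 it was 0.42 ± 0.219 (edgeR, adjusted p = 0.272), and 0.19 ± 0.19 without CD44 WT replicate 1, the library with the low value.

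ADGRG6 (GPR126), the receptor that starts myelination in Schwann cells and binds collagen IV and laminin-211, was well detected in MDA-MB-231 and at 0 to 0.165 CPM in Hs578T. It had 68.7, 117 and 141 CPM in MDA-MB-231 CD44 WT and 105, 101 and 84.0 CPM in CD44 KO. The CD44 KO libraries lay within the range of the CD44 WT libraries, at a log2 fold change of -0.17 ± 0.197 (edgeR, adjusted p = 0.663). Without CD44 WT replicate 1 it was -0.41 ± 0.124 (edgeR, adjusted p = 0.055), and without the unnumbered CD44 WT library 0.06. The 3 CD44 WT libraries of Hs578T held 2 counts and the CD44 KO libraries 1, which is at or under the floor of 3 counts, so no knockout change is given there. Between the CD44 WT groups MDA-MB-231 had 3833 counts against 2, a ratio of 2090 with an exact 95% interval from 578 to 17300 that covers counting error only. Both Hs578T counts came from replicate 2, without which that group held none, so the size of the ratio rests on that library.

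ADGRE5 (CD97), the leukocyte and tumour receptor that binds the complement regulator CD55, stood at a like level in all 4 groups. It had 293, 284 and 276 CPM in Hs578T CD44 WT, 295, 323 and 268 in CD44 KO, 287, 280 and 273 in MDA-MB-231 CD44 WT and 218, 248 and 279 in CD44 KO. Neighbouring groups in the order of its means overlapped throughout. Its log2 fold change was 0.05 ± 0.0944 in Hs578T, and that in MDA-MB-231 was -0.18 ± 0.0947 (edgeR, adjusted p = 0.285). The EGF-like domains of ADGRE5 and its neighbour ADGRE2 are close copies, and reads that fit both would have failed the mapping quality filter, so both may be undercounted.

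ADGRA2 (GPR124) works with RECK as a coreceptor for WNT7 in brain vessels, and ADGRA3 (GPR125) is its close relative. ADGRA2 had 77.1, 71.5 and 43.3 CPM in Hs578T CD44 WT and 47.7, 53.8 and 58.9 CPM in CD44 KO, and 2.4 to 4.24 CPM over the 6 MDA-MB-231 libraries. The log2 fold change was -0.26 ± 0.168 in Hs578T, and -0.48 ± 0.124 without CD44 WT replicate 3. Over the fits that left out 1 library it ran from -0.48 to -0.11. In MDA-MB-231 it was 0.36 ± 0.273 (edgeR, adjusted p = 0.477). ADGRA3 lay between 50.1 and 67.9 CPM in Hs578T and between 55.7 and 68.1 CPM in MDA-MB-231. Its log2 fold change was 0.25 ± 0.0941 in Hs578T, with no overlap of the groups, and 0.02 ± 0.0939 in MDA-MB-231 (edgeR, adjusted p = 0.968).

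The lines themselves differed in several members. Of the 10, 5 passed the threshold between the CD44 WT groups, where 61.5% of all tested genes did, and the groups did not overlap for 7 (71.8% of all tested genes), so the share of members was not above the background. Hs578T had more ADGRA2, at a log2 difference of 4.45 ± 0.224 (edgeR, adjusted p = 1.08e-10). It also had more ADGRB2, at 2.49 ± 0.243 (edgeR, adjusted p = 2.11e-07), and more ADGRL1, at 1.34 ± 0.13 (edgeR, adjusted p = 1.96e-07). ADGRG2 and ADGRG6 made up the rest, for which no test is given. For ADGRL2 the difference of -0.63 ± 0.226 (edgeR, adjusted p = 0.0214) went past the threshold without Hs578T CD44 WT replicate 3 (-0.88, adjusted p = 0.00319) or replicate 1 of MDA-MB-231 CD44 WT (-0.85, adjusted p = 0.0012). For ADGRA3 it was -0.23 ± 0.0944 (edgeR, adjusted p = 0.0367), and -0.31 without the latter library (adjusted p = 0.00292). Over the fits that left out 1 library the difference ran from -0.88 to -0.39 for ADGRL2 and from -0.31 to -0.18 for ADGRA3.

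Compared per length, as CPM per kb of exonic sequence, ADGRE5 was the highest member in every group, at 52.8 in Hs578T CD44 WT, 54.8 in CD44 KO, 52.1 in MDA-MB-231 CD44 WT and 46.1 in CD44 KO. For scale, CD44 was at 50.7 CPM per kb in Hs578T CD44 WT. The next in Hs578T CD44 WT were ADGRL1 at 14.9 and ADGRA2 at 9.06 CPM per kb, and the next in MDA-MB-231 CD44 WT were ADGRG6 at 12.9 and ADGRA3 at 6.82. ADGRG2 was at 2.01 CPM per kb in Hs578T CD44 WT, below ADGRB2 at 2.33 and above ADGRL4 at 0.044. In Hs578T CD44 KO it was at 0.0179 CPM per kb, and ADGRL4 was at 0.968.

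**Figure D3:**
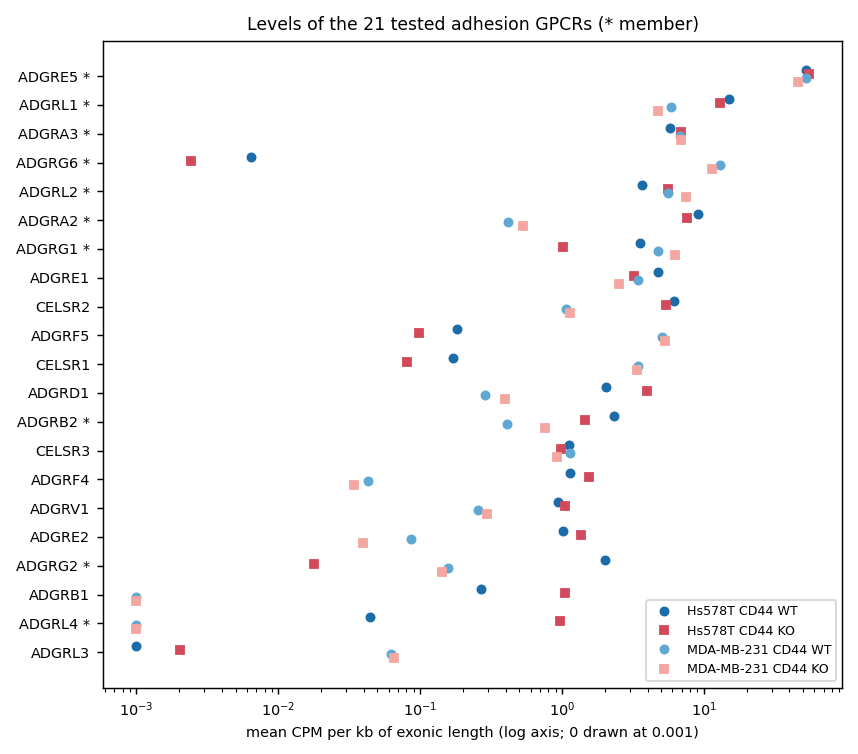
Mean CPM per kb of exonic length (x axis, log scale, 0 drawn at 0.001) of the 21 tested adhesion GPCRs, ordered by their mean over the groups, with one symbol for each group and a star for the 10 members. ADGRE5 leads at 46.1 to 54.8 CPM per kb in all groups, while ADGRG2, ADGRL4 and ADGRG6 span the widest ranges of the members.

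Of the other 11 tested genes of the family, 2 passed in Hs578T, both higher in CD44 KO. ADGRD1, a receptor that raises cyclic AMP, rose from 25.0, 34.8 and 30.4 CPM in Hs578T CD44 WT to 59.0, 57.2 and 57.8 in CD44 KO, at a log2 fold change of 0.95 ± 0.129 (edgeR, adjusted p = 0.000133). ADGRB1 (BAI1), a receptor for phosphatidylserine on dying cells, rose from 2.08, 2.55 and 1.27 CPM to 8.99, 5.12 and 8.96, at 1.95 ± 0.316 (edgeR, adjusted p = 0.00181), and it had 0 counts in MDA-MB-231. Its pass was lost without replicate 1 of Hs578T CD44 WT or replicate 1 or 3 of CD44 KO. In MDA-MB-231 none of the 11 passed in edgeR, where 4.62% of all tested genes did, or in DESeq2, and 3 had an unadjusted p under 0.05. With the members, 5 of the 21 tested genes of the family passed in Hs578T (3 higher, 2 lower), where 7.51% of all tested genes did, at a median log2 fold change of -0.19. Of these 5, 3 are ADGRG2, ADGRG1 and ADGRL4, seen in the comparison the list was built on, so nothing is read from the count. The 11 genes that were not tested had between 0 (ADGRD2, ADGRE3) and 60 (ADGRB3) counts in all 12 libraries together.

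The genes that neighbour ADGRG2 did not share its change. Over 12 other tested genes within 2 Mb on each side, edgeR passed 0 in either line and DESeq2 0 in either line, while 1 in Hs578T and 2 in MDA-MB-231 had an unadjusted p under 0.05. Their log2 fold changes ran from -0.4 to 0.34 in Hs578T, with a median of 0.02, and from -0.23 to 0.54 in MDA-MB-231. PHKA2, which lies 4.7 kb from ADGRG2, was at 0.05 ± 0.145 in Hs578T (edgeR, adjusted p = 0.864), and PDHA1, the nearest tested gene on the other side, was at -0.1 ± 0.0893 (edgeR, adjusted p = 0.53). Further on the side of PHKA2, SCML2 was at -0.13 ± 0.205. On the side of PDHA1, MAP3K15 was at -0.27 ± 0.244 and SH3KBP1 at 0.18 ± 0.0953.

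**Figure D4:**
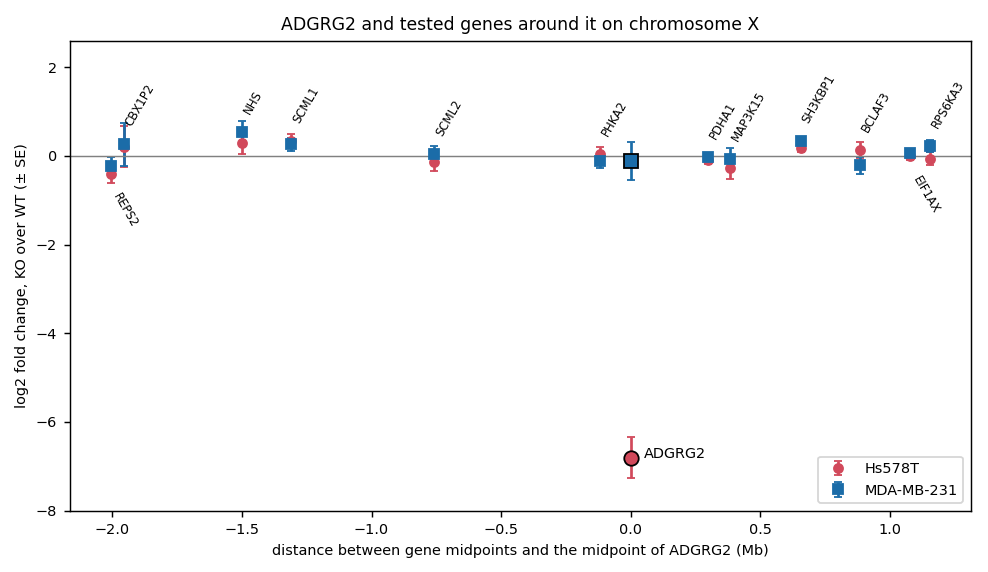
Knockout change on the log2 scale, CD44 KO relative to CD44 WT (y axis, bars ± SE) in Hs578T (circles) and MDA-MB-231 (squares) for ADGRG2 (black outline) and 12 other tested genes within 2 Mb of it on chromosome X, against the distance between gene midpoints in Mb (x axis). These neighbours lie between -0.4 and 0.34 in Hs578T, and ADGRG2 at -6.81.

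The genes whose levels over the 12 libraries were most like those of ADGRG2, by the Pearson correlation of log2 CPM, were SLC25A13 (0.938), MAF (0.937), OTX1 (0.932), GYG2 (0.925) and DMTN (0.92). The 12 points fall into 4 groups of shared libraries, so the coefficients describe the pattern over groups and have no p. MAF, a transcription factor, had 4.34 ± 0.6 CPM (SD, n = 3) in Hs578T CD44 WT and 0.123 ± 0.0376 in CD44 KO, with 0.449 ± 0.173 and 1.07 ± 0.372 in the MDA-MB-231 groups. GYG2, a glycogenin, had 2.13 ± 0.562 CPM in Hs578T CD44 WT and 0.0819 ± 0.0803 in CD44 KO. SLC25A13, a mitochondrial carrier, shared the order of the groups but not the size of the drop, with 58.7 ± 4.73 CPM in Hs578T CD44 WT, 44.3 ± 3.02 in CD44 KO and 48.0 ± 3.41 and 47.7 ± 0.707 in MDA-MB-231.

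Among 29 genes of known ligands and partners of adhesion GPCRs 26 were tested. In Hs578T 9 passed (6 higher, 3 lower), where 7.51% of all tested genes did. In MDA-MB-231 5 passed (2 higher, 3 lower), where 4.62% of all tested genes did. The list was put together with earlier results of these data known, so nothing is read from these counts. Over the 26 genes the median change was 0.12 on the log2 scale in Hs578T, against 0.14 in MDA-MB-231. Leaving out 1 library gave 6 to 10 passes in Hs578T. In MDA-MB-231 it gave 2 without CD44 WT replicate 3 or CD44 KO replicate 2, and 3 without CD44 KO replicate 1 or 3, Hs578T CD44 WT replicate 2 or Hs578T CD44 KO replicate 1. Of the 6 collagen and laminin genes on the list, LAMA2 and COL3A1 passed in Hs578T, and COL4A1, COL4A2, LAMB1 and LAMC1 did not, at log2 fold changes of -0.28 to 0.08. LAMA2, a chain of the ADGRG6 ligand laminin-211, rose from 4.72, 7.49 and 7.45 CPM in CD44 WT to 81.1, 116 and 77.7 CPM in CD44 KO, at a log2 fold change of 3.82 ± 0.2 (edgeR, adjusted p = 1.09e-08). ADGRG6 itself held only 2 counts in Hs578T CD44 WT and 1 in CD44 KO. COL3A1, a ligand of ADGRG1, rose from 2.91, 4.11 and 3.05 CPM to 11.1, 36.1 and 19.4, at 2.74 ± 0.346 (edgeR, adjusted p = 7.19e-05). The integrin gene ITGA5 was at 0.59 ± 0.101 (edgeR, adjusted p = 0.00101).

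The genes that fell in Hs578T included TENM2, a teneurin, from 95.1 ± 19.2 CPM (SD, n = 3) to 19.1 ± 3.79 CPM, at a log2 fold change of -2.31 ± 0.183 (edgeR, adjusted p = 8.18e-07). The other teneurin genes on the list, TENM1, TENM3 and TENM4, did not pass there, at 0.01 ± 0.18, 0.17 ± 0.149 and -0.13 ± 0.226. In Hs578T CD44 WT the means of TENM1 (900 CPM) and TENM3 (162 CPM) were above that of TENM2. ITGB3, an integrin chain, fell by 1.71 ± 0.267 on the log2 scale (edgeR, adjusted p = 0.00049). TGM2, the transglutaminase that ADGRG1 binds, was hardly present in Hs578T, at 2.7, 3.37 and 1.1 CPM in CD44 WT and 0.481, 0.493 and 0.426 CPM in CD44 KO (log2 fold change -2.34 ± 0.434, edgeR, adjusted p = 0.00192). That pass was lost without CD44 WT replicate 1 or 2 or CD44 KO replicate 2 or 3. In MDA-MB-231, where it was abundant, TGM2 rose from 188, 266 and 258 CPM to 488, 575 and 575 CPM, at 1.2 ± 0.156 (edgeR, adjusted p = 0.000178).

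CD55, the ligand of ADGRE5, and CD81, a tetraspanin found with ADGRG1, passed in both lines with opposite signs. CD55 rose in Hs578T from 35.6, 32.9 and 35.4 CPM to 47.1, 49.2 and 42.2 CPM (log2 fold change 0.42 ± 0.0977, edgeR, adjusted p = 0.00922). In MDA-MB-231 it fell from 140, 137 and 127 CPM to 105, 88.4 and 89.1 CPM (log2 fold change -0.51 ± 0.0929, edgeR, adjusted p = 0.00238). For CD81 the log2 fold change was 0.47 ± 0.106 in Hs578T (edgeR, adjusted p = 0.00721) and -0.79 ± 0.107 in MDA-MB-231 (edgeR, adjusted p = 0.000253). Of the 12 fits that left out 1 library, CD55 passed in 4 in Hs578T and 9 in MDA-MB-231, and CD81 in 5 and 12. The Hs578T passes were lost without CD44 WT replicate 1 or 2, CD44 KO replicate 1 or 2, MDA-MB-231 CD44 WT replicate 3 or MDA-MB-231 CD44 KO replicate 2 for both genes, without CD44 WT replicate 3 or MDA-MB-231 CD44 KO replicate 3 for CD55, and without CD44 KO replicate 3 for CD81. In MDA-MB-231 that of CD55 was lost without replicate 3 of CD44 WT or replicate 2 or 3 of CD44 KO. MDA-MB-231 also had more LAMB1 (0.42 ± 0.09, edgeR, adjusted p = 0.0078) and less WNT7B, a ligand of the ADGRA2 complex (-0.84 ± 0.179, edgeR, adjusted p = 0.00704), in CD44 KO, and each of these passed in 4 of those 12 fits. RECK, the partner of ADGRA2, did not pass in either line, at -0.19 ± 0.101 in Hs578T and 0.34 ± 0.113 in MDA-MB-231 (edgeR, adjusted p = 0.257 and 0.0742).

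**Figure D5:**
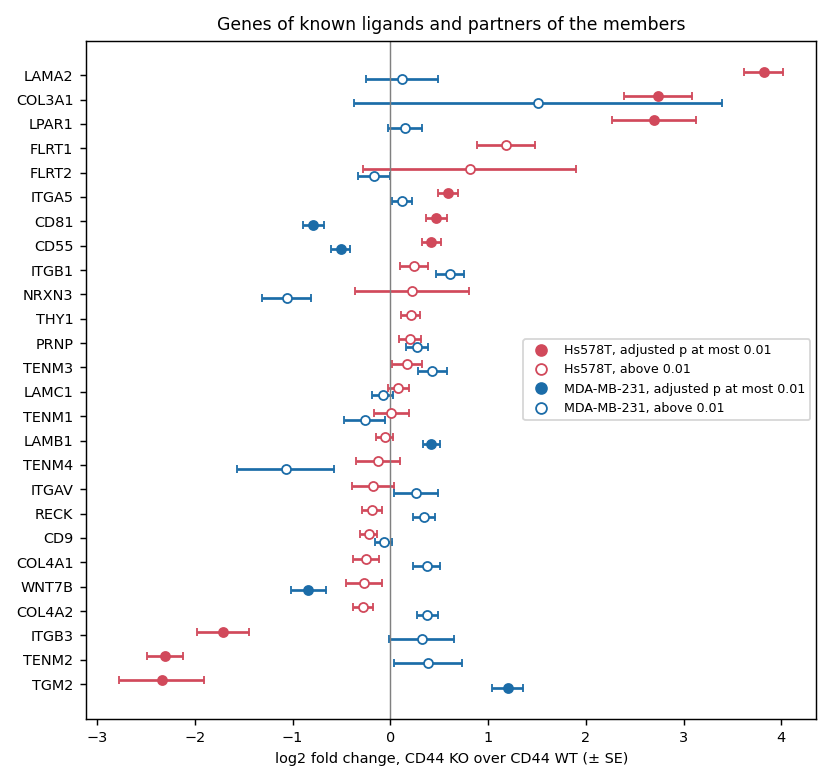
Knockout change on the log2 scale, CD44 KO relative to CD44 WT (x axis, bars ± SE) of the 26 tested genes of ligands and partners in Hs578T (red) and MDA-MB-231 (blue), ordered by the Hs578T value, with filled points for an adjusted p at most 0.01 and no point where both groups had at most 3 counts. TGM2, CD55 and CD81 carry filled points of opposite sign in the lines.

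Most genes of the pathways downstream of these receptors did not pass the test. Of 15 genes of heterotrimeric G proteins and arrestins 14 were tested. In Hs578T 1 was higher and 1 lower, where 7.51% of all tested genes passed. In MDA-MB-231 none passed in edgeR, where 4.62% of all tested genes did. DESeq2 passed 1 there, and 3 had an unadjusted p under 0.05 in edgeR. Over the 14 genes the median change was -0.03 on the log2 scale in Hs578T, against 0.09 in MDA-MB-231. GNAI1, an inhibitory G alpha subunit that acts against cyclic AMP, rose from 0.485, 0.329 and 0.169 CPM in Hs578T CD44 WT to 5.62, 5.98 and 6.14 CPM in CD44 KO, at a log2 fold change of 4.09 ± 0.278 (edgeR, adjusted p = 1.98e-07). The related GNAI2 and GNAI3 were far more abundant, at means of 356 and 207 CPM in Hs578T CD44 WT. Neither passed in Hs578T, at 0.03 ± 0.083 and 0.03 ± 0.0894. GNAL, a stimulatory subunit known from olfactory neurons, fell by 1.01 ± 0.231 on the log2 scale (edgeR, adjusted p = 0.00782), and passed in 2 of the 12 fits that left out 1 library, those without Hs578T CD44 WT replicate 3 and without MDA-MB-231 CD44 WT replicate 1.

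All 16 genes of the route from G12/13 to RhoA were tested. In Hs578T 3 were lower and 0 higher, where 7.51% of all tested genes passed. MYL9, a myosin light chain, fell by 0.76 ± 0.144 on the log2 scale (edgeR, adjusted p = 0.0022). CCN1, a target of the serum response and YAP pathways, fell by 1.06 ± 0.202 (edgeR, adjusted p = 0.0024), and ARHGEF11, a RhoA exchange factor that G12/13 drives, by 0.39 ± 0.092 (edgeR, adjusted p = 0.00965). The count of 3 became 0 without Hs578T CD44 WT replicate 1 or CD44 KO replicate 1, 1 without CD44 WT replicate 2 and 5 without MDA-MB-231 CD44 WT replicate 1. ARHGEF11 passed only in the last of these fits. In MDA-MB-231 none of the 16 passed in edgeR, where 4.62% of all tested genes did. DESeq2 passed 2 of the 16, and 5 had an unadjusted p under 0.05 in edgeR. Over the 16 genes the median change was -0.02 on the log2 scale in Hs578T, against -0.06 in MDA-MB-231.

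Of 19 genes of cyclic AMP signalling 14 were tested. In Hs578T 1 was higher, where 7.51% of all tested genes passed. In MDA-MB-231 1 was higher and 1 lower, where 4.62% of all tested genes passed. PRKAR2B, a regulatory subunit of protein kinase A, rose in Hs578T from 1.11, 0.411 and 1.86 CPM to 5.29, 7.77 and 6.48 CPM, at a log2 fold change of 2.54 ± 0.332 (edgeR, adjusted p = 9.66e-05). The other regulatory subunit genes, PRKAR1A, PRKAR2A and PRKAR1B, had higher means of 192, 147 and 39.3 CPM in Hs578T CD44 WT. None of them passed in Hs578T, at 0.28 ± 0.127, -0.17 ± 0.114 and -0.48 ± 0.136. PRKACB, a catalytic subunit, rose in MDA-MB-231 from 9.08, 14.8 and 18.8 CPM to 38.9, 41.7 and 34.5 CPM, at 1.43 ± 0.183 (edgeR, adjusted p = 0.00015). RAPGEF3, a cyclic AMP sensor that activates Rap1, fell there by 0.93 ± 0.176 on the log2 scale (edgeR, adjusted p = 0.00335). The pass of RAPGEF3 was lost without MDA-MB-231 CD44 WT replicate 1 or 3 or CD44 KO replicate 1 or 2. The Hs578T count became 2 without Hs578T CD44 WT replicate 3 or MDA-MB-231 CD44 WT replicate 1. Over the 14 tested genes the median change was -0.11 on the log2 scale in Hs578T, against 0.14 in MDA-MB-231.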

How the data were processed

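RNA-seq counts of 12 libraries were deposited as 1 table. Per the file header and the study's methods, the authors aligned reads with HISAT2 2.1.0 to GRCh38 and counted, with featureCounts 1.6.2 on GENCODE version 28, properly oriented fragments (reverse strand) with both ends mapped and a mapping quality of at least 10, so the deposited counts are whole fragments per gene, not normalized. Multi-mapping fragments were left out, which lowers close paralogs. Samples were grouped by their titles, and 1 CD44 WT column of MDA-MB-231 had a group but no replicate number. Genes over 1 CPM in at least 2 libraries and with at least 300 exonic bases were tested with edgeR 4.0.16 (R 4.3.3, TMM, quasi-likelihood) in 1 model of 4 groups, with Benjamini-Hochberg adjustment over all 15836 genes and a threshold of 0.01. DESeq2 1.42.0, other scalings, filters and blocks were alternatives. The fits were checked on simulated data. The members and gene lists were chosen with earlier results of these data known. Of each list, the text names at most 6 genes past the threshold in a comparison, those of largest change whose mean reached 5 CPM in 1 of the groups compared, besides all members, CD44, neighbours among the 3 nearest tested genes on each side of ADGRG2 and the 5 genes most like it. A gene of the ligand list, a neighbour of ADGRG2 and promoter sequences are not reported here, and the lists are counted without them. RECK, GNAL, LPAR1, COL4A1, COL4A2 and LAMC1 were named after their values were seen, as were the Hs578T values of TGM2 and CD55, which the rule names for MDA-MB-231, and of LAMB1. The same holds for TENM1, TENM3, TENM4, GNAI2, GNAI3, PRKAR1A, PRKAR1B and PRKAR2A. Folds are not given where both groups had at most 3 counts.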

Additional observations from a re-analysis of the deposited data

Results flagged for a closer look

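The knockout change differed between the lines, by the test of the difference itself at an adjusted p of 0.01 (edgeR), for the following genes, each given as the change in Hs578T minus that in MDA-MB-231 on the log2 scale. Among the members these were ADGRG2 (-6.69) and ADGRB2 (-1.56), given without a p. For them the test contains the Hs578T comparison the members were chosen on, so nothing is read from their passing. For ADGRB2 the pass was kept in 2 of the 12 fits that left out 1 library. Among the ligands and partners the difference was -3.54 for TGM2 (changes of -2.34 and 1.20), -2.70 for TENM2 (-2.31 and 0.39) and -2.02 for ITGB3 (-1.71 and 0.32). It was 3.69 for LAMA2 (3.82 and 0.12) and 2.55 for LPAR1 (2.70 and 0.15), which was at 0.393 CPM in Hs578T CD44 WT. CD81 (1.26) and CD55 (0.93) passed in both lines with opposite signs. COL4A2 (-0.67) passed in neither line alone, with changes of -0.28 and 0.38. Among the signalling genes it was 3.90 for GNAI1 (4.09 and 0.19), 1.95 for PRKAR2B (2.54 and 0.58) and -1.47 for PRKACB (-0.03 and 1.43). The largest adjusted p among the genes that are no member was 0.00841, for COL4A2 (edgeR). Single libraries were not tested for standing apart within their groups of 3.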

How the results depend on the processing

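The members were recounted under 22 other settings where each could be applied. In Hs578T the 3 members became 5 with no filter on low counts, and 2 to 4 when 1 library was left out. In MDA-MB-231 the 0 became 1 (ADGRB2) with no filter on low counts, 1 at an adjusted p of 0.05 and 0 to 1 when 1 library was left out. For the difference between the lines the 2 became 1 with the replicate block, and 1 to 3 when 1 library was left out. Between the CD44 WT groups the 5 became 8 at an adjusted p of 0.05 and 5 to 7 when 1 library was left out. Counts of genes in the lists that are no member moved as follows. At an adjusted p of 0.05 the family count in Hs578T was 4, the cyclic AMP count there 3, and in MDA-MB-231 the counts were 8 for ligands and partners, 1 for G proteins, 2 for RhoA and 1 for the genes around ADGRG2. With a log2 fold change of at least 1 they were 1 for the family and 1 for RhoA in Hs578T, and 1 for ligands and partners and 1 for cyclic AMP in MDA-MB-231. With no filter on low counts they were 3 for cyclic AMP in Hs578T, and 9 for ligands and partners, 1 for G proteins and 4 for RhoA in MDA-MB-231. DESeq2 gave 1 for G proteins and 2 for RhoA in MDA-MB-231, and each comparison fitted on its own libraries gave 2 for ligands and partners there. A block of 4 running label numbers gave 1 for G proteins and 1 for RhoA in MDA-MB-231, and 2 for cyclic AMP in Hs578T. When 1 library was left out the Hs578T counts ran from 1 to 3 for the family, 6 to 10 for ligands and partners, 1 to 3 for G proteins, 0 to 5 for RhoA and 1 to 2 for cyclic AMP. The MDA-MB-231 counts then ran from 2 to 7 for ligands and partners, 0 to 1 for RhoA and 1 to 2 for cyclic AMP, and stayed at 0 for the family and G proteins. The genes around ADGRG2 stayed at 0 in both lines. The causes of these moves were not tested, beyond the fewer libraries of some fits.

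Replicate numbers were not taken to pair libraries. Over 15 pairs of libraries with the same number the correlation of their deviations from the group means ran from -0.115 to 0.164, and within a line, over 5 pairs, from -0.0957 to 0.164. The running label numbers, which no source says mark a batch, form blocks of 4 with 1 library of each group, and 17 of the 18 pairs within a block correlated above 0, from -0.00115 to 0.164. With that block 3 members passed in the difference between the lines, ADGRG1 besides ADGRG2 and ADGRB2. The replicate block, fitted without the unnumbered library, gave 1 member in the difference between the lines and 1 cyclic AMP gene in MDA-MB-231, and under it ADGRG1 no longer passed in Hs578T. It reversed values near 0 that had passed no test, namely ADGRG2 (0.14) and ADGRG6 (0.05) in MDA-MB-231 and ADGRE5 between the CD44 WT groups (-0.02). Among values that had passed no test, leaving out 1 library also changed the sign of ADGRG2 (range -0.38 to 0.29), ADGRG6 (-0.41 to 0.06) and ADGRA3 (-0.07 to 0.07) in MDA-MB-231, of ADGRE5 in Hs578T (-0.01 to 0.13), and of the differences of the knockout changes of ADGRL1 (-0.01 to 0.21) and ADGRL2 (-0.03 to 0.45). Of 1191 recomputed values of single genes, 1059 kept their direction and side of the threshold. Depth limits ADGRL4, ADGRG2 and ADGRG6 most, where some groups held at most 7 counts.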
